A study of Mus musculus with 8 samples.

Results

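The tubulin genes examined here encode the alpha and beta subunits of microtubules in the mouse hippocampus. The set was given by symbol and holds 3 alpha genes (Tuba1a, Tuba1b and Tuba4a) and 5 beta genes (Tubb2a, Tubb2b, Tubb3, Tubb4a and Tubb5). All 8 were found among the 31417 genes of the count table, and all 8 passed the filter on low counts. Poly(A) RNA was sequenced with a strand-specific kit from single hippocampi of Dclk3 knockout mice (KO, 4 libraries) and wild-type control mice (WT, 4 libraries), all 12 months old. Dclk3 encodes a doublecortin-like kinase. The strain, the deleted part of Dclk3 and the sex of the animals are not stated in the labels, and these do not say that the 4 libraries of a group came from 4 animals. The p-values therefore measure only how far these samples spread, which may be technical.

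Microtubules are polymers of alpha and beta tubulin, which fold with the help of chaperones and join as a dimer before they are built into the polymer. Mammals carry several genes for each subunit, and the isotypes they encode differ mostly in the acidic C-terminal tail, where enzymes add and remove glutamates and where many motors and microtubule-associated proteins make contact. In brain, Tuba1a is known as a major alpha isotype of developing neurons and Tuba4a as one of the mature nervous system. Tubb3 is the classic neuron-specific beta isotype, Tubb2a and Tubb2b are rich in brain, Tubb4a is abundant in neurons and myelinating oligodendrocytes, and Tubb5 is expressed broadly. Tubulin transcripts are also unstable when free dimer is in excess, a feedback that acts on the transcripts as they are translated.

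The coding ends of 6 of the genes are shown first, because isotypes can part there and because the likeness between genes decides which reads can be assigned to one of them. The last 60 coding bases, with the stop codon, were read from the GENCODE M21 principal transcript of each. Capitals mark the bases at which the members of a near-identical pair, Tubb2a and Tubb2b, differ. The other 4 tails carry no capitals.
Tuba4a: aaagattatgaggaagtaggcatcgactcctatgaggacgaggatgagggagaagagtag
Tubb2a: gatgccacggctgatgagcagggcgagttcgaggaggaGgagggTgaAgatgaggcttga
Tubb2b: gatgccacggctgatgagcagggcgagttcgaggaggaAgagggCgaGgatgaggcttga
Tubb3: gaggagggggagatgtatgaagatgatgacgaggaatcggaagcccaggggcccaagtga
Tubb4a: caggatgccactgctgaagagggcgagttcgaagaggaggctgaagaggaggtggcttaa
Tubb5: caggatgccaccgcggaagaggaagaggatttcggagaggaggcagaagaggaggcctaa

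The tails of Tubb2a and Tubb2b differed at 3 of these 60 bases. Each is the last base of a codon, and none of the 3 changes the encoded amino acid. Over the whole coding sequence the other near-identical pair, Tuba1a and Tuba1b, differed at 23 of 1356 bases, with an identical run of up to 281 bases, and Tubb2a and Tubb2b at 47 of 1338 bases, with a run of up to 551. Identity was taken over an end-to-end alignment, with gaps counted as differences. By this measure the last 90 coding bases of Tuba4a were 60.6% identical to those of Tuba1a, and the rest of the coding sequence 85.5%. The coding sequences differ in length (1347 bases for Tuba4a and 1356 for Tuba1a), so gaps lower these values. Tubb3, with 1353 coding bases, had at most 53.3% identity to any other beta gene of the set over the last 90 bases (Tubb2b, 1338 coding bases). Over the rest it had 81.6% or more. Part of the drop in Tuba4a and Tubb3 may come from gaps, and how much was not measured. Tubb4a and Tubb5 were 82.8% identical over the last 90 bases and 84.0% over the rest.

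The likeness between genes differed greatly across the set. Leaving aside Gm49450, a read-through gene that spans both Tuba1a and Tuba1b, 73.0% of the 50-base words of the Tuba1b principal transcript also occurred in a transcript of another gene, and 61.6% of those of Tuba1a, in both cases most often in Tuba1c. A further 198 of the 1754 words of Tuba1a and 14 of the 1694 of Tuba1b occurred elsewhere only in Gm49450, and they are counted as shared in the scale by unshared words used later. The shares were 49.6% for Tubb2a and 39.3% for Tubb2b, which share most with each other. They were 1.11% for Tuba4a, 0.184% for Tubb4a, 0.115% for Tubb5 and 0% for Tubb3. Apart from those in Gm49450, the shared words of Tuba1a, Tuba1b, Tubb2a and Tubb2b held none that lay wholly in the 3' untranslated region. The treatment of reads that match several genes is not given, so the levels of these 4 genes are uncertain when set against other genes. A comparison of 1 gene between KO and WT carries the same lengths and the same sharing in both groups. Even so, if shared reads were counted for more than 1 gene, a difference in 1 gene could enter the values of another. That was not tested.

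Positions are given on mm10 from GENCODE M21. Tuba1a (15:98949837 to 98953703) and Tuba1b (15:98931425 to 98934565) are neighbours on the minus strand of chromosome 15, and Tubb2a (13:34074274 to 34078007) and Tubb2b (13:34126748 to 34130466) on the minus strand of chromosome 13. Tubb4a (17:57080066 to 57087782) and Tubb5 (17:35833921 to 35838306) lie on the minus strand of chromosome 17. Tuba4a (1:75214228 to 75219865) is on the minus strand of chromosome 1 and Tubb3 (8:123411424 to 123422015) on the plus strand of chromosome 8. All are protein-coding genes. Exons of Tuba4a overlap those of Stk16, a kinase gene on the opposite strand, over 1379 bases; whether the counting used strand is not given, and WT and KO libraries had 36.5 ± 2.91 and 37.6 ± 5.10 counts per 1000000 (CPM) of Stk16 (n = 4 each).

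Libraries held 29301974 to 36552757 counts, of which the 8 tubulin genes took 0.245% to 0.293%. Levels are CPM scaled by TMM, a method that evens out differences in library composition. The lowest member count, 1074 for Tuba1b in KO replicate 2, has an exact Poisson interval (95%) of 1011 to 1140 counts. Dclk3, the targeted gene, was at 26.7 ± 8.51 CPM in the WT libraries against 7.71 ± 1.42 CPM in the KO libraries, with no overlap (unadjusted p = 1.4e-05 and adjusted p = 0.234 by edgeR; adjusted p = 3.9e-13 by DESeq2, which called 5 genes, Dclk3 among them). Summed choroid plexus markers ranged from 68.1 to 2172 CPM in WT and from 181 to 3396 CPM in KO. Defining markers of hippocampal neurons were present in every library, with 6 markers summing to 771 to 919 CPM in WT and 697 to 894 CPM in KO.

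No tubulin gene passed the test between KO and WT. Each of the 8 genes had a lower fitted mean in KO, by 2.71% to 11.8%, with log2 fold changes from -0.18 (Tubb4a) to -0.040 (Tuba4a) and a median of -0.11. Over all 16228 genes tested, 49.9% had a fold change below 0 and the median log2 fold change was 0.00029. edgeR's quasi-likelihood test with Benjamini-Hochberg adjustment over all genes called 0 of the 8 (adjusted p = 0.796 to 0.947), beside 0.00% of all genes. At an unadjusted p under 0.05 it was also 0 of 8, beside 6.16% of all genes (2.20% lower and 3.96% higher in KO). In 0 of the 8 were the groups without overlap, beside 3.80% of all genes (1.92% lower in KO). DESeq2 called 0 of the 8 (lowest adjusted p = 0.818), beside 0.0308% of the genes it tested. The count of members below 0 was 7 without WT replicate 2, where Tubb2b turned, and 7 without KO replicate 1, where Tuba4a turned.

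**Figure D1:**
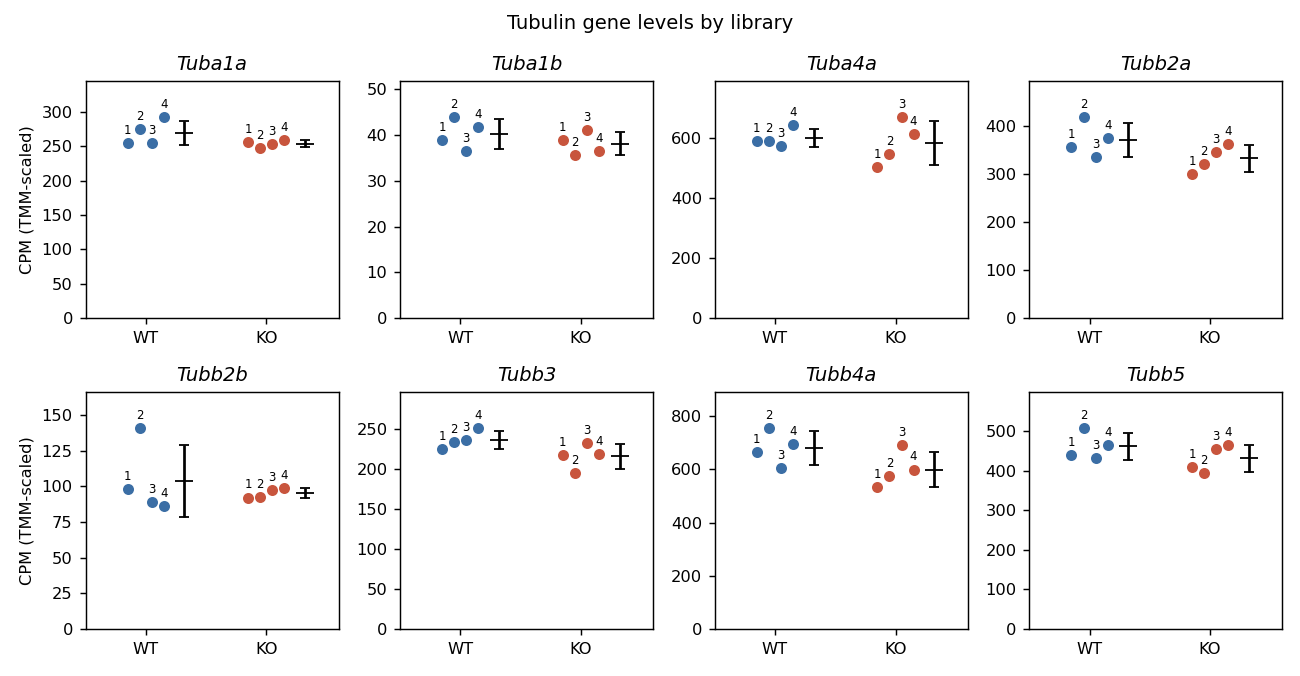
Level of each tubulin gene in each library, in TMM-scaled CPM on axes that start at 0; numbered points are WT (blue) and KO (red) libraries, and the black bar is the mean with the SD (n = 4). WT and KO points overlap in all 8 panels, and WT replicate 2 is the highest point of Tuba1b, Tubb2a, Tubb2b, Tubb4a and Tubb5.

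Among the alpha genes, Tuba1a stood at 255, 275, 255 and 292 CPM in WT replicates 1 to 4 and at 256, 247, 253 and 259 CPM in KO replicates 1 to 4. The KO libraries lay close together, with an SD of 5.17 CPM against 18.0 CPM in WT, and their range overlapped the lower WT libraries. Means were 269 CPM for WT and 254 CPM for KO. The fitted log2 fold change was -0.084 (SE 0.061; adjusted p = 0.824 by edgeR), with a 95% interval of -0.22 to 0.052.

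Values of single libraries follow the order of replicates 1 to 4. Tuba1b, a broadly expressed alpha gene whose protein is nearly the same as that of Tuba1a, was the lowest of the 8 in CPM. It had 38.8, 43.9, 36.5 and 41.7 CPM in the WT libraries against 38.9, 35.5, 41.1 and 36.6 CPM in the KO libraries. The groups lay over each other, and the log2 fold change was -0.080 (SE 0.073; adjusted p = 0.848 by edgeR).

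Tuba4a had 589.5, 592, 575 and 643 CPM in the WT libraries against 504, 546, 670.5 and 614 CPM in the KO libraries. The KO libraries spread further than the WT libraries (SD 73.6 against 29.8 CPM), and KO replicate 1 was the lowest and KO replicate 3 the highest of all 8. Its log2 fold change was -0.040 (SE 0.090; adjusted p = 0.947 by edgeR), and without KO replicate 1 it was 0.028. KO replicate 1 also had the lowest sum of the 6 hippocampal neuron markers, at 697 CPM against 765 to 919 CPM in the other libraries. The part of these markers in the result was not tested.

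Among the beta genes, Tubb4a had the largest fitted difference. It stood at 664, 756, 604 and 695 CPM in the WT libraries against 535, 573, 690.06 and 599 CPM in the KO libraries. KO replicates 1, 2 and 4 lay below every WT library and KO replicate 3 lay within the WT range. The log2 fold change was -0.18 (SE 0.094; 95% interval -0.39 to 0.027; adjusted p = 0.796 by edgeR), and the exact two-sided permutation p of the CPM values was 0.114. The interval runs from a KO level of 76.3% of WT to one of 102%.

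Tubb3 had 225, 234, 237 and 251 CPM in the WT libraries against 217, 195, 233 and 219 CPM in the KO libraries. Of the KO libraries, replicates 1, 2 and 4 lay below every WT library, and replicate 3, at 233 CPM, lay above WT replicate 1. The log2 fold change was -0.13 (SE 0.067; adjusted p = 0.796 by edgeR), with an exact permutation p of 0.0571, where 4 against 4 allows no p below 0.0286.

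Tubb2a had 356, 418, 334 and 375 CPM in the WT libraries against 299.6, 321, 346 and 363 CPM in the KO libraries. KO replicates 1 and 2 lay below the WT range and replicates 3 and 4 within it. The log2 fold change was -0.16 (SE 0.086; 95% interval -0.35 to 0.032; adjusted p = 0.796 by edgeR).

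Tubb2b had 98.2, 141, 89.0 and 86.4 CPM in the WT libraries against 92.1, 92.6, 97.7 and 99.1 CPM in the KO libraries. All 4 KO libraries lay inside the WT range, which WT replicate 2 stretched upward. The log2 fold change of -0.12 (SE 0.14; adjusted p = 0.881 by edgeR) became 0.067 without WT replicate 2. In that library the 6 astrocyte markers summed to 4115 CPM, against 2941 to 3568 CPM in the others. Of these, Gfap stood at 1805 CPM against 442 to 578 CPM, while the other 5 summed to 2309.5 CPM, against 2463 to 2997 CPM. The immature neuron markers summed there to 95.3 CPM, within the 78.0 to 107.5 CPM of the other libraries. The sum does not show single genes. Sox11, 1 of these markers, stood there at 26.7 CPM against 10.3 to 19.2 CPM in the other libraries, and the rest of the list is not given singly. Tubb6, a beta tubulin of low abundance in brain, had 3.87 CPM there against 0.608 to 1.89 CPM. The part of these in the result was not tested.

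Tubb5 had 441, 508, 432 and 465 CPM in the WT libraries against 409, 395, 455 and 466 CPM in the KO libraries. KO replicates 1 and 2 were the lowest of the 8 libraries, while KO replicate 4 exceeded 3 of the 4 WT libraries. The log2 fold change was -0.097 (SE 0.078; adjusted p = 0.832 by edgeR).

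**Figure D2:**
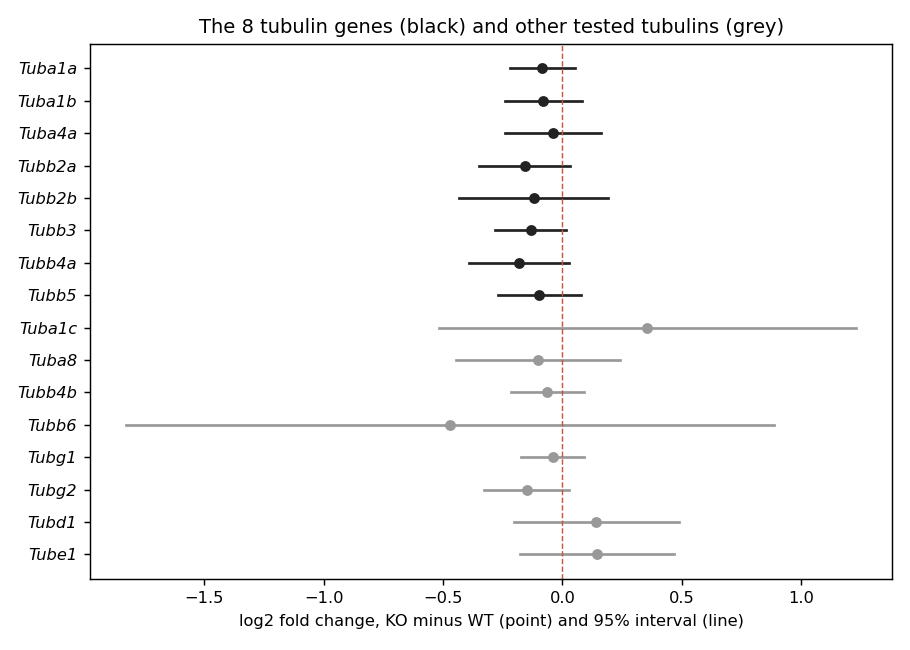
Log2 fold change of KO minus WT (points) with its 95% interval (lines) for the 8 tubulin genes in black and the other tubulin genes tested in grey; the dashed line marks no difference. All 8 black points lie below 0 and all 16 intervals cross it, with the widest for Tubb6 and Tuba1c.

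The summed level of the 8 genes averaged 2762 ± 181 CPM over the WT libraries against 2550.2 ± 206 CPM over the KO libraries (SD, n = 4). Single libraries had 2667, 2967, 2563 and 2849.9 CPM in the WT libraries against 2352, 2406, 2787 and 2656 CPM in the KO libraries. KO replicates 1 and 2 lay below every WT library, and KO replicates 3 and 4 lay within the WT range. The KO mean was 7.66% lower, and the exact two-sided permutation p was 0.171. In bulk tissue, fewer cells of a type and less RNA per cell cannot be told apart. Beside the tubulins, all 7 markers of mature neurons (Rbfox3, Snap25, Syt1, Nefl, Nefm, Map2 and Thy1) had fold changes below 0, none of them called by edgeR, and summed to 7571 to 8425 CPM in WT and 6913 to 8314 CPM in KO. All 8 oligodendrocyte markers had fold changes above 0, none of them called, and summed to 3542 to 5058 CPM in WT and 4319 to 4870 CPM in KO. All markers of microglia (5), endothelium (4), choroid plexus (6) and cortical layers (4) also had fold changes above 0, none of them called, and astrocyte markers had 2 below and 4 above. The other neuron lists did not lean to 1 side. Hippocampal neuron markers had 3 below and 3 above 0, and so did the 6 immature neuron markers tested. Ependymal markers had 1 below and 3 above. Over all genes tested, 49.9% were below 0. No gene of the mature neuron or oligodendrocyte sets had 0 counts in all libraries, and the part of these markers in the tubulin values was not tested.

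Isotype shares give each gene as a percentage of the counts of all 8 in the same library, so that total tubulin cancels. Tubb4a held 24.6 ± 0.808% in WT and 23.5 ± 1.03% in KO, and Tuba4a 21.8 ± 1.23% and 22.8 ± 1.09%. These were the most abundant isotypes by counts in each family, and the only shares whose group means differed by more than 1 percentage point, with -1.11 for Tubb4a and 1.06 for Tuba4a, KO minus WT. For Tubb4a the WT libraries had 24.9%, 25.5%, 23.6% and 24.4% and the KO libraries 22.7%, 23.8%, 24.8% and 22.6%. KO replicates 1 and 4 lay below the WT range, and KO replicates 2 and 3 within it. For Tuba4a the WT libraries had 22.1%, 19.95%, 22.4% and 22.6% and the KO libraries 21.4%, 22.7%, 24.1% and 23.1%. KO replicates 2, 3 and 4 lay above every WT library, and WT replicate 2 was the lowest of all.

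The remaining group means of shares differed by less than 0.4 percentage points. Tubb5 held 16.7 ± 0.361% in WT and 16.9 ± 0.643% in KO, and Tubb2a 13.4 ± 0.463% and 13.0 ± 0.560%. Tuba1a held 9.76 ± 0.441% and 10.0 ± 0.761%. Tubb3 held 8.59 ± 0.577% and 8.48 ± 0.508%, Tubb2b 3.73 ± 0.729% and 3.75 ± 0.181%, and Tuba1b 1.46 ± 0.0230% and 1.496 ± 0.116%. In each of the 8 genes the shares of the 2 genotypes overlapped. Exact two-sided permutation tests of the 8 shares gave p values of 0.171 to 0.943, and 0.838 to 0.943 after adjustment over the 8. KO replicate 1 had the highest share of Tuba1a (10.9%) and Tuba1b (1.65%) of all libraries, and WT replicate 2 the highest share of Tubb2b (4.75%), Tubb2a (14.1%) and Tubb4a (25.5%).

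**Figure D3:**
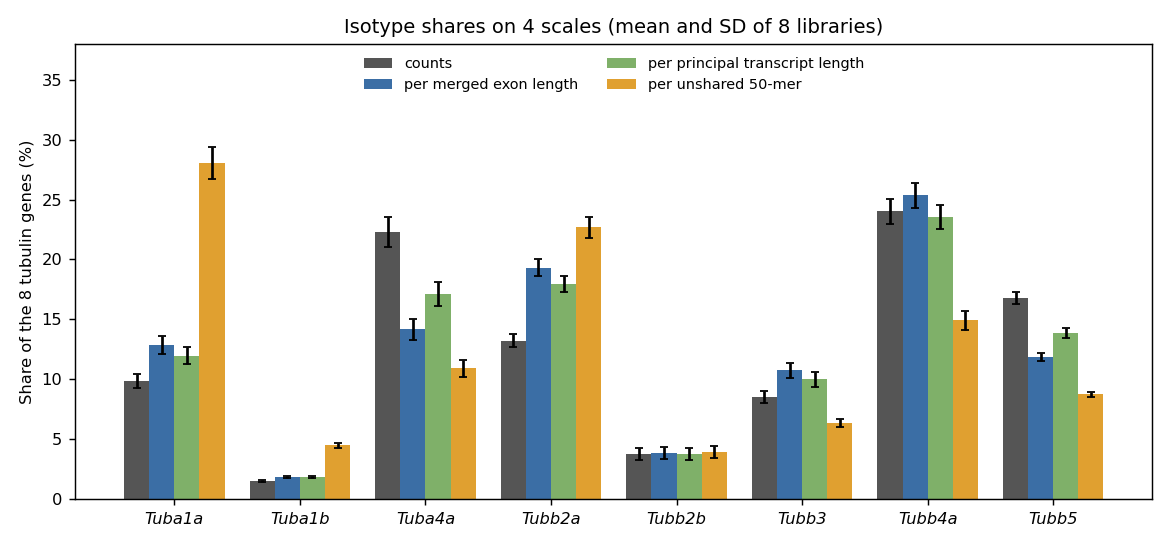
Share of each gene among the 8 tubulin genes, in percent, as the mean of 8 libraries with the SD as the error bar, for raw counts and for counts divided by 3 measures of gene length. Tuba1a holds 9.88% of counts and 28.1% per unshared 50-base word, and Tuba4a 22.3% and 10.9%. Words found elsewhere only in the read-through gene Gm49450 are left out of the unshared words.

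Which isotype ranked highest depended on the measure of length. Divided by the merged exon length, in CPM per kilobase, the order over 8 libraries was Tubb4a at 287 ± 33.0, Tubb2a at 218 ± 22.3, Tuba4a at 159.9 ± 14.2, Tuba1a at 145 ± 8.16, Tubb5 at 134 ± 10.7, Tubb3 at 121 ± 8.95, Tubb2b at 43.4 ± 7.56 and Tuba1b at 20.9 ± 1.56 (SD, n = 8). Neighbours in this order overlapped in their ranges over the libraries, except Tubb2a with Tuba4a, Tubb3 with Tubb2b, and Tubb2b with Tuba1b. Within single libraries the order was steadier: Tubb4a exceeded Tubb2a in 8 of 8, Tuba4a exceeded Tuba1a in 7 of 8, and Tuba1a exceeded Tubb5 in 7 of 8. The merged exons of Tuba4a (3701 bases) and Tubb5 (3327 bases) are longer than their principal transcripts (2840 and 2649 bases). With the principal transcripts, Tuba4a stood at 208 ± 18.5 CPM per kilobase and came close to Tubb2a, which exceeded it in 7 of 8 libraries, and Tubb5 at 168 ± 13.4 exceeded Tuba1a in every library.

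Counted only against the 50-base words found in no other gene, Tuba1a led the set with 551 ± 31.0 CPM per 1000 such words, followed by Tubb2a with 447 ± 45.7 and Tubb4a with 294 ± 33.8. This first place rests on leaving out the 198 words of Tuba1a that occur elsewhere only in Gm49450. Gm49450 is not in the count table, and with these words kept Tuba1a would fall below Tubb2a. Tuba4a had 214 ± 19.1, Tubb5 172 ± 13.7, Tubb3 124 ± 9.19, Tuba1b 88.1 ± 6.58 and Tubb2b 76.9 ± 13.4. This measure treats every shared read as lost, and the scale by merged exons treats none as lost; the files do not say which is closer to the counting used. No share passed the test between KO and WT on any of the 4 scales (adjusted p by exact permutation = 0.686 to 0.971).

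The alpha and beta subunits are made into dimers in equal amounts, so their summed transcripts were set against each other. The ratio of the counts of the 3 alpha genes to those of the 5 beta genes was 0.495, 0.443, 0.511 and 0.522 in WT replicates 1 to 4 and 0.514, 0.526, 0.5297 and 0.521 in KO replicates 1 to 4. The KO libraries lay within a narrow band, while the WT libraries spread from well below that band to its middle. The group means were 0.493 ± 0.0351 in WT and 0.523 ± 0.00652 in KO, 6.10% higher in KO, with an exact two-sided permutation p of 0.0857. Leaving out WT replicate 4 parted the groups (8.24% higher in KO, exact permutation p = 0.0286). That was the largest difference with any 1 library left out, and its p is the lowest that 3 against 4 libraries allow. Leaving out WT replicate 2 brought the difference to 2.64% (exact permutation p = 0.143). Per merged exon length the ratio was 0.395 ± 0.0265 in WT and 0.419 ± 0.00472 in KO (exact permutation p = 0.0857). Per principal transcript length it was 0.436 ± 0.0297 and 0.462 ± 0.00290 (exact permutation p = 0.0571). Per unshared 50-base word it was 0.749 ± 0.0515 in WT and 0.789 ± 0.0311 in KO (exact permutation p = 0.286). With all alpha and all beta tubulin genes it was 0.470 ± 0.0334 and 0.497 ± 0.00588 (exact permutation p = 0.0857).

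**Figure D4:**
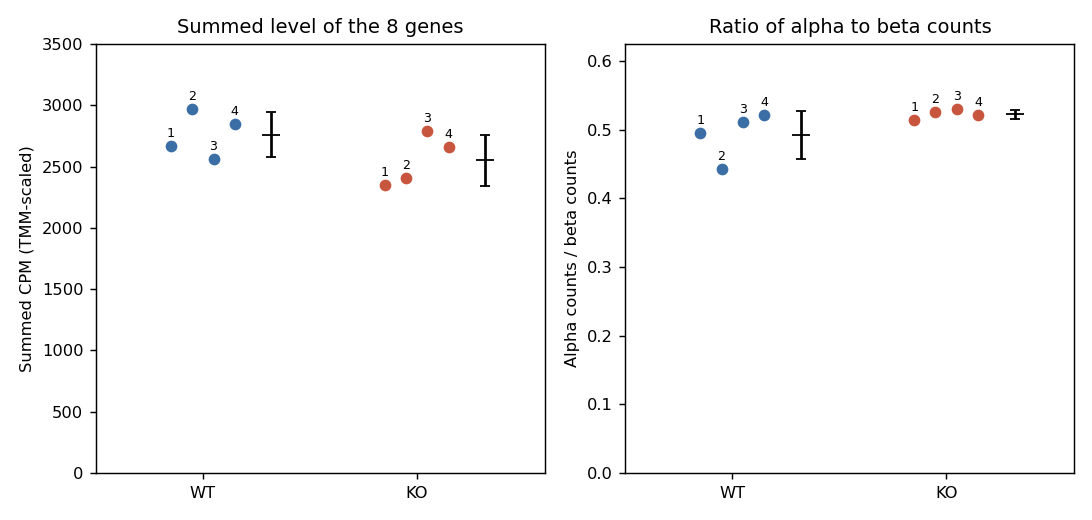
Summed TMM-scaled CPM of the 8 tubulin genes (left) and the ratio of alpha to beta tubulin counts (right) in each library, on axes that start at 0; numbered points are libraries and the black bar is the mean with the SD (n = 4). The KO ratios lie between 0.514 and 0.5297, and WT replicate 2, at 0.443, is the lowest.

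Pearson's r between log2 CPM was above 0 in all 28 pairs over the 8 libraries, from 0.060 (Tubb2b with Tubb3) to 0.93 (Tubb2a with Tubb5). The 8 libraries carry both genotypes and share their scaling factors across genes. By exact permutation 2 pairs passed adjustment over the 28: Tubb2a with Tubb5 (p = 0.00166, adjusted p = 0.0465) and Tubb2a with Tubb4a (r = 0.89, exact p = 0.00332, adjusted p = 0.0465). Spearman's rho for them was 0.93 (exact p = 0.00223, adjusted p = 0.0625) and 0.83 (exact p = 0.0154, adjusted p = 0.211), so neither passed by rank. Without the 2 libraries farthest from the Tubb2a median, r was 0.90 for Tubb5 and 0.66 for Tubb4a. With each genotype centred on its own mean, r was 0.92 and 0.83. Signs were not the same by every measure in pairs with Tubb2b: Spearman's rho was -0.29 with Tubb3 and -0.024 with Tuba1a, r within genotype was -0.12 with Tubb3, and r without the 2 farthest libraries was -0.22 with Tuba1b and -0.058 with Tuba4a. Over all 8 libraries Tubb2b had r of 0.071 to Tuba4a and 0.18 to Tuba1a.

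**Figure D5:**
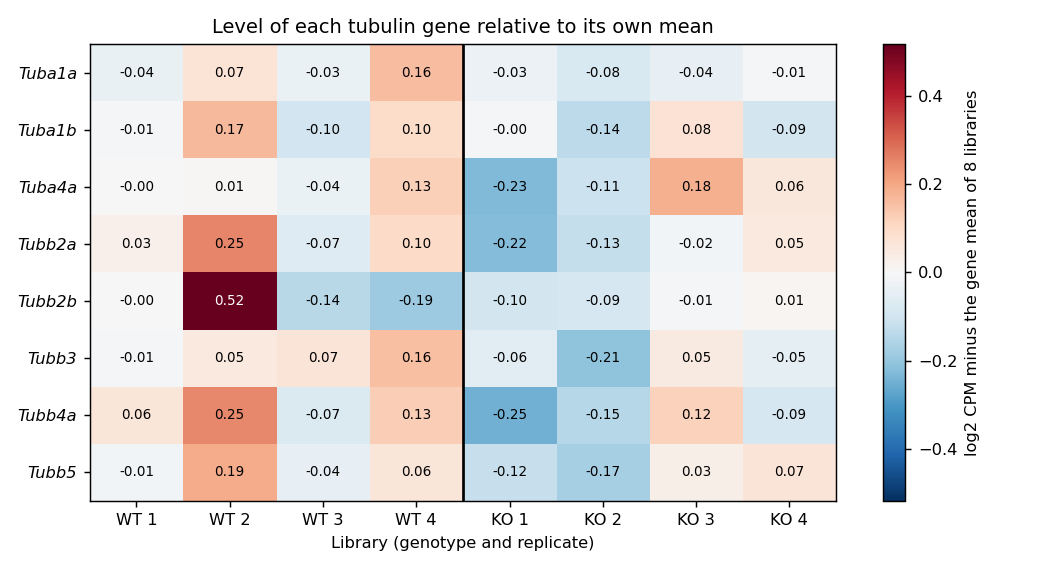
Log2 CPM of each tubulin gene in each library minus that gene's mean over the 8 libraries; red is above and blue below the mean, and the vertical line parts WT from KO. WT replicate 2 is 0.52 above the mean for Tubb2b and 0.25 for Tubb2a and Tubb4a, and KO replicates 1 and 2 are below the mean for all 8 genes.

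Among 9870 other genes with a mean of at least 10 CPM, those whose log2 CPM followed the summed tubulin level most closely over the 8 libraries were Aars (alanyl-tRNA synthetase, r = 0.99), Rap2c (a small GTPase, r = 0.99), Dnajc16 (a DnaJ-domain protein, r = 0.98), Clip3 (a CAP-Gly domain protein, r = 0.98) and Ints5 (an Integrator subunit, r = 0.98). They are the top of a ranking in which 339 genes had an r over 0.9, and no test was made. Clip3 had 551 ± 48.9 CPM in the WT libraries against 499 ± 41.3 CPM in the KO libraries, and Aars at 179 ± 12.0 and 163.5 ± 13.0 CPM, neither of them called.

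The remaining tubulin genes added little to the pool. The 8 genes made up 95.2% to 95.7% of the counts of all alpha and beta tubulin genes in the table, and most of the rest was Tubb4b, a beta isotype of many tissues and of cilia, at 114 ± 4.31 CPM (WT) and 109 ± 9.67 CPM (KO). Tuba8 had 11.7 ± 2.19 and 10.9 ± 1.72 CPM, Tuba1c 0.803 ± 0.432 and 1.04 ± 0.365 CPM, and Tubb6 1.55 ± 1.55 and 1.12 ± 0.515 CPM. Tubg1 and Tubg2, the gamma tubulins that nucleate microtubules, had WT levels of 28.7 ± 1.38 and 34.2 ± 2.46 CPM against KO levels of 27.9 ± 0.992 and 30.9 ± 2.88 CPM. Tubd1 (delta) had 4.37 ± 0.694 and 4.81 ± 0.790 CPM and Tube1 (epsilon) 2.22 ± 0.141 and 2.46 ± 0.301 CPM. These 8 genes had 5 fold changes below and 3 above 0, with a median log2 fold change of -0.052, and edgeR called 0 of them (lowest adjusted p = 0.796; 0 at an unadjusted p under 0.05). Tuba3a, Tuba3b, Tubal3 and Tubb1 did not pass the filter, with at most 3 counts in a library.

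Genes that fold, modify, nucleate and sever tubulin were described from lists by function, and edgeR called 0 genes in each. Of 22 genes for tubulin folding (the CCT chaperonin, prefoldin, the tubulin cofactors and the tubulin mRNA decay factor Ttc5), 15 had fold changes below 0 and 7 above, with a median of -0.035. Over all genes tested, 49.9% were below 0. Only Tbce of the 22 had an unadjusted p under 0.05, beside 6.16% of all genes, and its low p is what put it among the genes named. This cofactor, which binds alpha tubulin, stood at 19.4 ± 1.95 CPM (WT) and 24.2 ± 4.35 CPM (KO), with overlapping groups (log2 fold change 0.32, SE 0.13; adjusted p = 0.796 by edgeR). Tbcel, a relative of Tbce, had 58.4 ± 2.34 and 64.2 ± 4.39 CPM, and Tbcd, a cofactor that binds beta tubulin, 52.3 ± 1.90 and 48.5 ± 2.74 CPM.

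Of 30 listed genes that add or remove tubulin modifications, 26 were tested, with 14 below and 12 above 0 and a median of -0.0085. An unadjusted p under 0.05 was reached by 4 of them, 2 in each direction, beside 6.16% of all genes. In 3 of the 26 the groups did not overlap, beside 3.80% of all genes. Lrrc49, a subunit of the tubulin polyglutamylase complex, had 58.7 ± 1.69 CPM (WT) and 53.0 ± 2.41 CPM (KO) (log2 fold change -0.15, SE 0.053; adjusted p = 0.796 by edgeR). Ttll3, a tubulin glycylase, had 7.29 ± 0.766 and 9.29 ± 1.29 CPM (log2 fold change 0.35, SE 0.12; adjusted p = 0.796 by edgeR), and Agbl3, a deglutamylase, 6.20 ± 0.415 and 7.53 ± 0.999 CPM. The groups of Lrrc49 and Ttll3 did not overlap; their low p is what put them among the genes named.

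In 20 nucleation genes there were 10 fold changes on either side of 0, with a median of 0.00094 and no unadjusted p under 0.05. Mzt2, a small protein of the gamma tubulin ring complex, had 17.6 ± 0.888 and 16.5 ± 0.863 CPM, and the augmin subunits Haus5 and Haus7 had WT levels of 0.344 ± 0.0743 and 5.37 ± 0.309 CPM against KO levels of 0.465 ± 0.164 and 4.88 ± 0.351 CPM. In 9 severing genes there were 6 below and 3 above 0, with a median of -0.061 and no unadjusted p under 0.05. Of the katanin genes, Katnbl1 had 7.45 ± 0.800 and 8.25 ± 0.156 CPM and Katnal1 91.6 ± 7.67 and 85.5 ± 7.60 CPM in WT and KO.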

How the data were processed

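The deposited values are raw read counts per Ensembl gene, 1 column per library, per the file headers. Per the submitters' processing notes, bcl2fastq 2.17.1.14 was used and coordinates are on mm10. Aligner, counter, annotation and strand setting: not given in the sources used here. Libraries were made from 1000 ng of total RNA with 12 PCR cycles, per the labels' protocols. Counting intervals cover counting error only.

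KO was compared with WT over all genes by edgeR 4.0.16 in R 4.3.3 (TMM, filterByExpr, robust quasi-likelihood F test, Benjamini-Hochberg adjustment; call at adjusted p under 0.05). Each SE was taken as the absolute log2 fold change over sqrt(F). Shares, the summed level and the alpha to beta ratio were compared by exact two-sided permutation over the 8 libraries. Symbols were found for 31292 of 31417 gene IDs, and lengths and sequences came from GENCODE M21. Alternatives were DESeq2 1.42.0, limma 3.58.1 (voom with quality weights), other scalings, filters and length measures, the replicate number as a block, and each library left out. The routines were tested on simulated data.

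The members and gene lists were chosen with earlier results of these data known. The genes named are the 8 members, Dclk3, the other tubulins that were tested, up to 3 genes with the lowest p from each other pathway list, and the 5 genes most like the summed tubulin level. Stk16, Gfap and Sox11 were named after their values were seen. Gm49450, Ttc5 and the mature neuron markers are named only to say what was counted. A gene that the rule names and some sequences are not reported here. No batch is given in the labels. Pairs of libraries within a group differed beyond sampling noise (chi-square per degree of freedom 8.85 to 40.9 for summed counts of 20 or more).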

Additional observations from a re-analysis of the deposited data

How the results depend on the processing

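None of the 8 tubulin genes was called under any alternative run. With adjusted p under 0.1 the count of called genes, over all genes and over the members, stayed at 0. Over all genes, DESeq2 called 5 and the fit with the replicate block called 1; with a library left out the count was 0 to 1, and genes at an unadjusted p under 0.05 numbered 556 (without WT replicate 4) to 1777 (without KO replicate 4). Members at an unadjusted p under 0.05 numbered 1 under limma-voom (Tubb3) and 0 to 2 with a library left out (2 without WT replicate 3 or KO replicate 3). Deviations from the group mean had correlations of 0.14, 0.12, -0.22 and -0.014 between same-numbered libraries. Between differently numbered ones they ran from -0.30 to 0.19. The labels do not state a pairing, and these values cannot decide whether there was one. With the replicate block 8 members stayed below 0. Flipping the signs of the 4 same-numbered differences gave an exact p of 0.375 for the summed level and 0.25 for the alpha to beta ratio. With 4 differences this test cannot reach a p under 0.05, so no conclusion is drawn from it.

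With a library left out, log2 fold changes ran from -0.11 to 0.028 for Tuba4a and from -0.20 to 0.067 for Tubb2b, the summed level from -10.5% to -5.26%, and the alpha to beta ratio from 2.64% to 8.24%. Medians ran from -0.082 to 0.048 for the other tubulins, -0.055 to -0.023 for folding and -0.047 to -0.0038 for modification, -0.018 to 0.026 for nucleation and -0.085 to 0.0033 for severing; limma-voom gave 0.036 for the other tubulins and upper quartile scaling -0.017 for folding. Share differences in percentage points ran from -0.045 to 0.55 for Tuba1a, -0.012 to 0.081 for Tuba1b, -0.22 to 0.36 for Tubb2b and -0.36 to 0.11 for Tubb3. Within the own family the share differences turned to -0.43 for Tuba1a, -0.063 for Tuba1b and 0.078 for Tubb3. Where these values moved, the cause was not tested. The alternatives by principal transcript and by unshared 50-base words were chosen after seeing the data. For the 8 genes counts were high (1074 or more in a library), but depth limits Tuba1c (10 to 44 counts) and Haus5 (10 to 20).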
